A study of Mus musculus with 6 samples.

Results

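The 7 CXC chemokine genes Cxcl1, Cxcl2, Cxcl3, Cxcl9, Cxcl10, Cxcl11 and Cxcl16 were read in mouse bone marrow-derived macrophages that lack or carry Foxo1. They were found by their gene names on the array, 7 of the 27361 gene names with a value on every array, and all 7 were among the 19038 genes bright enough to be tested. The study compared macrophages with and without the transcription factor FoxO1 across polarization states, and RNA was hybridised to 6 one-colour Agilent whole mouse genome arrays, 1 for each of 2 genotypes and 3 polarization states. KO cells had the genotype LysMcre FoxO1 Fl/Fl, in which Cre is driven from the lysozyme M gene, and WT cells had FoxO1 Fl/Fl without Cre. Cells of both genotypes were of the strain C57BL/6. The floxed Foxo1 allele was shared by all groups, and only KO cells carried Cre. Bone marrow was cultured for 7 days with 10% L929 medium. The next 24 hours set the state: M0 cells were left unstimulated. M1 cells were given lipopolysaccharide (LPS) at 100 ng/ml and interferon-gamma at 20 ng/ml. For M2, IL-4 and IL-13 were each added at 10 ng/ml. Nothing in the labels says whether the samples came from separate animals, which part of Foxo1 is deleted, or in what share of the cells.

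CXC chemokines are small secreted proteins that bind receptors of the Cxcr family on white blood cells and direct their movement. In the mouse, Cxcl1, Cxcl2 and Cxcl3 act on Cxcr2 of neutrophils and are transcribed by way of NF-kB after LPS. Cxcl9, Cxcl10 and Cxcl11 bind Cxcr3 of activated T cells and NK cells and are classical targets of interferon-gamma, which acts in part through the factor Irf1. C57BL/6 mice carry a frameshift in Cxcl11, so its transcript is not read into the full chemokine in this strain. Cxcl16 is made as a membrane protein, is released by the protease Adam10, and binds Cxcr6.

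The bases before the start of these genes are shown first, because Cxcl1, Cxcl2 and Cxcl3 share a stretch of letters there that Cxcl9 lacks. The RefSeq promoter table (GRCm38.p6, a later build than the mm9 of the array files) held 5 of the 7 genes, and the 250 bases before the annotated start of each were searched on both strands. The motifs were the NF-kB site by its usual consensus, GAS (TTCNNNGAA), the gamma-activated sequence, and the core of the interferon-stimulated response element, ISRE (GAAANNGAA). Overlapping NF-kB matches were joined. Capitals mark every match, and all sequences run 5′ to 3′ on the strand of the gene. Cxcl1 lies at chr5:90890995-90891244 (plus strand), Cxcl2 at chr5:90903649-90903898 (plus strand), Cxcl3 at chr5:90785851-90786100 (plus strand), Cxcl9 at chr5:92328080-92328329 (minus strand) and Cxcl10 at chr5:92348890-92349139 (minus strand).
Cxcl1: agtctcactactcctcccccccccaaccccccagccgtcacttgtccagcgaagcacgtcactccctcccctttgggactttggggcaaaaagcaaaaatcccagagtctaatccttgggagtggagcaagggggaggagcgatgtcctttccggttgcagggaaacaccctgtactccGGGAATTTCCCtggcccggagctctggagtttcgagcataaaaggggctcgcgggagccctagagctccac
Cxcl2: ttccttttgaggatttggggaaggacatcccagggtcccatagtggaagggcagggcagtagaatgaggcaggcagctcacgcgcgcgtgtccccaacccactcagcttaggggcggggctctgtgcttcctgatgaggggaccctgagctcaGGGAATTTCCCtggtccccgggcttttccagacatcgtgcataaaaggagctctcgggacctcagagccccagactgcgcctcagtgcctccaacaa
Cxcl3: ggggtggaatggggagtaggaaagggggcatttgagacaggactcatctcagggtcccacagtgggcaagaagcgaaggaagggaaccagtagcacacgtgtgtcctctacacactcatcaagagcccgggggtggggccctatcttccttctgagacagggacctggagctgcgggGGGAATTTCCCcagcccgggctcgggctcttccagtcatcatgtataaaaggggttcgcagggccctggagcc
Cxcl9: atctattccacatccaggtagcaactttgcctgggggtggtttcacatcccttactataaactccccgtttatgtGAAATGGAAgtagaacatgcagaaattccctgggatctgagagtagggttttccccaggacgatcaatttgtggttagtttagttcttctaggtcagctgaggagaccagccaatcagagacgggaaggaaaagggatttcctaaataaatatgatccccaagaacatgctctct
Cxcl10: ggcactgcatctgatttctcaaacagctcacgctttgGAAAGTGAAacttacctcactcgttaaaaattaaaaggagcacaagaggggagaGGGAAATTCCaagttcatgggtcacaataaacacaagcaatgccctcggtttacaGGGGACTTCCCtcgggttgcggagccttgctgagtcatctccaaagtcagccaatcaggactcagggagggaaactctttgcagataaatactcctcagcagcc

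Cxcl1, Cxcl2 and Cxcl3 each held 1 NF-kB stretch of 11 bases, and its letters were the same in all 3 genes. It ended 61 bases before the start in Cxcl1, 87 in Cxcl2 and 63 in Cxcl3. These 11 letters were found in 14 of 32851 promoters (0.0426%), a count made after the shared stretch was seen. Cxcl10 held 2 NF-kB stretches, ending 150 and 94 bases before its start, and 1 ISRE core that ended 205 bases before it. Cxcl9 held 1 ISRE core, ending 167 bases before the start, and no match to the NF-kB consensus in this window. GAS was found in 0 of the 5 windows. Of all 32851 promoters, 7.25% held the NF-kB consensus, 7.13% the ISRE core, 7.02% GAS, and 0.362% both an NF-kB and an ISRE core match, as Cxcl10 did. Of the other CXC ligand genes, 6 of 8 had a window, and 0 of these held the NF-kB consensus. Among them Cxcl14 held 1 GAS and 1 ISRE core, ending 183 and 164 bases before its start. Cxcl5 and Cxcl17 had no window. A match describes letters and does not show that a factor binds there.

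**Figure D1:**
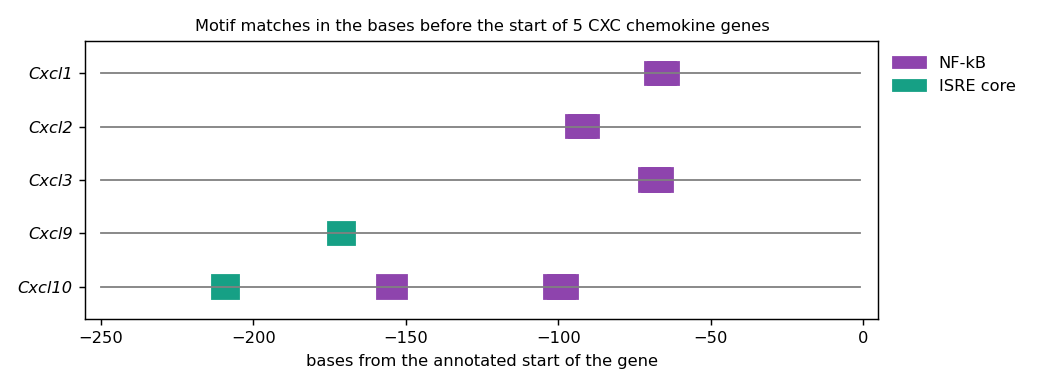
Matches to the NF-kB consensus (purple) and the ISRE core (green) in the 250 bases before the annotated start of 5 CXC chemokine genes, drawn by distance from the start in bases. Cxcl1, Cxcl2 and Cxcl3 have 1 NF-kB stretch each, Cxcl9 has 1 ISRE core, and Cxcl10 has both kinds.

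Each gene is named by its probe. On mm9, the files place 6 of the 7 genes on chromosome 5: Cxcl3 at chr5:91216694-91216753, Cxcl1 at chr5:91321845-91321904 and Cxcl2 at chr5:91334534-91334593 on the plus strand, and Cxcl9 at chr5:92752191-92752250, Cxcl10 at chr5:92775781-92775840 and Cxcl11 at chr5:92790123-92790274 on the minus strand. Cxcl16 has 2 probes on the minus strand of chromosome 11, the brighter at chr11:70267780-70267839 and the other at chr11:70269521-70272262. Whether a probe lies in coding sequence or a UTR is not annotated in the files. The Cxcl11 probe and the dimmer Cxcl16 probe have 60 bases but span 152 and 2742 bases of the genome, so their letters cross a splice junction. They are shown because the M1 reading of Cxcl11 rests on the first, and the second disagrees in size with the brighter Cxcl16 probe. No pair of the 7 genes' probes shares a run of more than 9 bases.
Cxcl11: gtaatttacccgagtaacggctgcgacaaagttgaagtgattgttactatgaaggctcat
Cxcl16: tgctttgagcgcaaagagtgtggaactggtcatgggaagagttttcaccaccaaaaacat

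Levels below are log2 processed signals relative to the 75th percentile of the array, which lay between 532 and 628 units, and between 63.1% and 67.9% of spots were well above background. The 6 arrays limit the precision of every value. A level of a probe is compared only with the same probe on another array, since probes differ in brightness. All 8 macrophage markers were well above background on every array, with a summed level between 9.67 and 10.39. For the targeted gene Foxo1, KO minus WT was -2.92 (M0), -2.78 (M1) and -2.66 (M2), and -2.80, -2.90 and -2.90 on its second probe. Of the 7 liver transcripts, 6 were well above background on KO M1 and 7 on WT M0, with summed levels of -0.01 on KO M1 and 4.77 on WT M0, against -3.57 to -2.61 on the other arrays. The WT M0 and WT M1 arrays lay on 1 slide and the other 4 on another, so the genotypes share a slide only in M2. In bulk RNA, more cells of a type and more RNA per cell cannot be told apart.

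**Figure D2:**
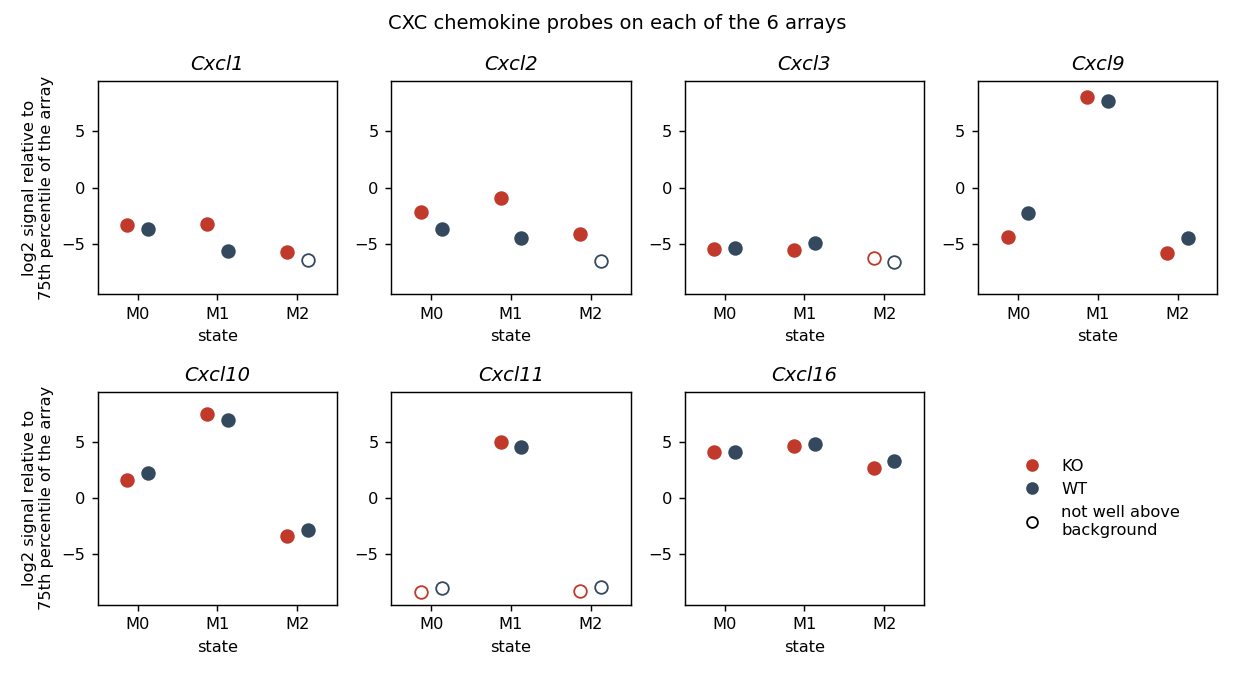
Level of each CXC chemokine probe (log2 signal relative to the 75th percentile of the array) in M0, M1 and M2, with KO in red to the left of WT in dark blue, 1 point per array, and hollow points not well above background. Cxcl9, Cxcl10 and Cxcl11 are high in M1 of both genotypes, and Cxcl2 lies higher in KO than in WT in each state.

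The comparison of M1 with M0 asks which chemokines respond to LPS with interferon-gamma. The 3 Cxcr3 ligands Cxcl9, Cxcl10 and Cxcl11 rose, and Cxcl1, Cxcl2, Cxcl3 and Cxcl16 did not pass. The test was limma's additive model of state and genotype over all 6 arrays, with p-values adjusted by Benjamini-Hochberg over the 19038 genes. In it 3 of 7 members passed an adjusted p of 0.05 as higher and 0 as lower, while 11.6% of all tested genes passed as higher and 14% as lower. The median difference of the 7 genes was 0.63, against 0.03 for all genes. With 1 array for each genotype and state, these p-values measure only the spread left between these arrays, and that spread includes any genotype difference that is not the same in each state as well as noise of the arrays.

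Cxcl9 had the largest difference measured on both sides. Its levels in M0, M1 and M2 were -4.41, 8.09 and -5.86 on the KO arrays and -2.26, 7.71 and -4.49 on the WT arrays. Both M1 arrays lay far above the other 4, and the order M1, M0, M2 held in both genotypes. M1 minus M0 was 11.23 ± 0.67 (SE), a fold of 2409, with an adjusted p of 0.00715 in limma. This difference ranked 1 among the 16049 genes that all 4 of these arrays measured above background. It was 12.50 in KO and 9.97 in WT.

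Cxcl10 had levels in M0, M1 and M2 of 1.59, 7.54 and -3.35 on the KO arrays and 2.22, 6.98 and -2.83 on the WT arrays. The 3 states were apart by more than the genotypes in every case, and the order M1, M0, M2 was again the same in KO and WT. M1 minus M0 was 5.35 ± 0.37 (SE), a fold of 40.9, at an adjusted p of 0.00783 in limma and rank 49 of the same 16049 genes. It was 5.95 in KO and 4.76 in WT.

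Cxcl11 was not well above background on any M0 or M2 array and was bright in M1, at 5.04 on the KO array and 4.55 on the WT array. In such cases only a bound can be given. For it, a dim array counts at its lowest signal well above background, or at the probe's own value if that is higher. A p-value printed with a bound, here and below, is that of limma's fitted difference, which takes dim readings as they are. Cxcl11 rose at least 2237-fold in M1 over M0 (adjusted p of 0.00597 in limma). On the log2 scale this bound is 11.13, and it was 11.40 in KO and 10.85 in WT. It holds for the processed signal: with normexp, whose offset of 50 units raises dim signals, the fitted log2 difference was 7.02 (adjusted p of 0.0151), and that of Cxcl9 was 9.36.

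Cxcl16, the membrane-bound ligand, was well above background on all 6 arrays. Its brighter probe read 4.09, 4.65 and 2.74 on the KO arrays and 4.11, 4.81 and 3.31 on the WT arrays in M0, M1 and M2. Both genotypes had the order M1, M0, M2. The M1 minus M0 difference was 0.63 ± 0.21 (SE), at an adjusted p of 0.104 in limma. The other probe read 3.59, 5.39 and 3.01 on the KO arrays and 3.72, 4.97 and 2.82 on the WT arrays. Its M1 minus M0 was 1.80 in KO and 1.25 in WT, against 0.56 in KO and 0.71 in WT on the brighter probe, so the probes agree in direction and differ in size. With the mean of both probes the difference was 1.08 and passed (adjusted p of 0.0230 in limma), as it also did with an intensity trend in the variance prior (0.0292). It was smaller under quantile normalization, at 0.22 (adjusted p of 0.441), and in the authors' deposited table, at 0.20 (0.483).

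The neutrophil-attracting genes behaved otherwise. Cxcl1 read -3.31, -3.24 and -5.78 on the KO arrays and -3.65, -5.70 and -6.48 on the WT arrays in M0, M1 and M2, the last not well above background. WT M1 thus lay near the M2 arrays, while KO M1 lay beside the M0 arrays. The difference of M1 from M0 was -0.99 ± 0.59 (SE; limma's adjusted p was 0.295), and was 0.07 in KO and -2.05 in WT. Leaving out 1 array gave -1.96 without KO M1, -1.61 without KO M0, -0.022 without WT M1 and -0.37 without WT M0.

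Cxcl2 read -2.17, -0.97 and -4.15 on the KO arrays and -3.68, -4.50 and -6.53 on the WT arrays in M0, M1 and M2, again with WT M2 not well above background. Every KO array lay above the WT array of its state, and in KO the M1 array was the highest, whereas in WT it was the M0 array. Between M1 and M0 the difference was 0.19 ± 0.53 (SE; adjusted p of 0.824 in limma), with 1.20 in KO and -0.82 in WT. Without either the KO M0 or the KO M1 array this difference turned negative (-0.53 and -0.60).

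Cxcl3 stayed near the lower limit of the arrays. Its levels in M0, M1 and M2 were -5.52, -5.54 and -6.33 on the KO arrays and -5.38, -4.93 and -6.64 on the WT arrays, and neither M2 value was well above background. Within M0 and M1 the 4 readings spanned less than 1 log2 unit. The M1 minus M0 difference was 0.22 ± 0.28 (SE), at an adjusted p of 0.613 in limma. It was -0.73 with normexp background correction and -0.13 without the WT M1 array. The median of all genes in this comparison was -0.35 with normexp, against 0.03 with the processed signal.

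The calls for Cxcl9, Cxcl10 and Cxcl11 need all 4 arrays of M0 and M1. Leaving out any 1 of them left a single residual degree of freedom and 0 of 19038 genes passing, with the lowest adjusted p of a member in limma between 0.0625 and 0.106. The differences themselves then ran from 10.17 to 12.30 for Cxcl9 and from 4.79 to 5.92 for Cxcl10. Without both WT M0 and KO M1, the arrays with liver transcripts, they were 10.75 for Cxcl9 and 4.88 for Cxcl10, with no test.

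**Figure D3:**
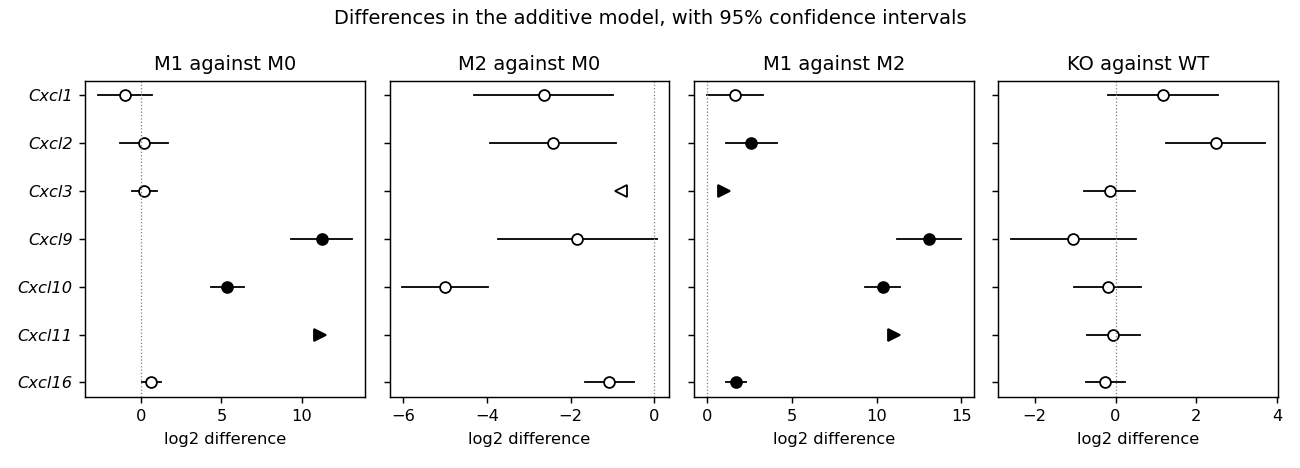
Log2 differences of the 7 genes in limma's additive model for M1 against M0, M2 against M0, M1 against M2 and KO against WT, with 95% confidence intervals (lines). Filled symbols passed an adjusted p of 0.05. Triangles are bounds where no array of 1 side was well above background. Cxcl11 in M2 against M0, dim on both sides, is not drawn. Circles can include dim arrays, taken as they are: WT M2 for Cxcl1 and Cxcl2. In KO against WT they also include the dim M2 arrays for Cxcl3 and the dim M0 and M2 arrays for Cxcl11.

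The comparison of M2 with M0 asks the same for IL-4 with IL-13. Cxcl10 was 31.9-fold lower in M2, the largest distance among the 7, and missed the threshold. In limma 0 of 7 members passed in either direction, where 0.0788% of all tested genes passed as higher and 0.021% as lower. At an unadjusted p under 0.05, 5 members were lower (Cxcl1, Cxcl2, Cxcl3, Cxcl10 and Cxcl16), against 19.1% of all genes in both directions. The median difference of the 7 genes was -1.84, against 0.08 for all genes.

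Cxcl10 differed by -5.00 ± 0.37 (SE), at an adjusted p of 0.0579 in limma, and by -4.94 in KO and -5.06 in WT. Among the 16664 genes measured above background on these 4 arrays, 1 had a lower difference. The gene passed, in the same direction, under quantile normalization (adjusted p of 0.0387), median centring (0.00354), the authors' deposited table (0.0364), a test of only the genes bright on all 6 arrays (0.0301) and an intensity trend in the prior (0.00246), all with limma. Median centring also passed Cxcl1 and Cxcl2, and the intensity trend also passed Cxcl16.

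Cxcl1 differed by -2.65 ± 0.59 and Cxcl2 by -2.41 ± 0.53 (SE), at adjusted p of 0.157 and 0.154 in limma. Both fits take the dim WT M2 reading as it is. For both genes the M2 array was the lowest of its genotype. Within KO the differences were -2.47 for Cxcl1 and -1.98 for Cxcl2, and within WT, where the M2 array was dim, they were -2.52 or lower for Cxcl1 and -2.49 or lower for Cxcl2. Cxcl3 was at least 1.74-fold lower in M2 (adjusted p of 0.193). Cxcl9 differed by -1.84 ± 0.67 (adjusted p of 0.269 in limma), with -1.45 in KO and -2.23 in WT. Cxcl16 differed by -1.07 ± 0.21 (adjusted p of 0.134), with -1.35 in KO and -0.80 in WT. Cxcl11 was dim in both states and has no fold.

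M1 and M2 cells, the poles of the polarization scheme, were set against each other as well. All members had a positive M1 minus M2 difference, and all except Cxcl1 passed. Thus 6 of 7 passed in limma as higher and 0 as lower, where 11.7% of all genes passed as higher and 13.6% as lower. The median difference was 2.61, against -0.17 for all genes. Cxcl9 differed by 13.07 ± 0.67 (SE; adjusted p of 0.00546 in limma) and ranked 1 of 16220 genes measured on all 4 arrays, and Cxcl10 by 10.35 ± 0.37 (0.00500), at rank 5. Cxcl11 rose at least 2111-fold (0.00442). Cxcl16 differed by 1.71 ± 0.21 (0.0145), with 1.91 in KO and 1.50 in WT.

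Among the neutrophil-attracting genes, Cxcl1 differed by 1.66 ± 0.59 (SE) and did not pass (adjusted p of 0.124 in limma). Cxcl2 differed by 2.61 ± 0.53 (0.0402). For both genes the fit takes the dim WT M2 reading as it is. Cxcl3 rose at least 2.02-fold, a bound of 1.01 on the log2 scale. Its adjusted p of 0.0475 in limma belongs to the fitted difference of 1.25, which takes the dim M2 readings as they are. Those 2 calls lie close to the threshold, and both were lost when normexp was used, when dim genes were not filtered, and when the slide entered as a block. With only the genes bright on all 6 arrays tested, 3 members were tested and all 3 passed. Leaving out 1 array left between 0 and 5 members called, with 0 without WT M1 or KO M1 and 3 without WT M0 or KO M0.

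KO was compared with WT over the 3 states in the same model. Cxcl2 was the member farthest apart, higher in KO by 2.48 on the log2 scale, and no member passed. In limma 0 of 7 members and 0 of 19038 genes passed (0% as higher and 0% as lower, lowest adjusted p 0.304), while 11.3% of genes had an unadjusted p under 0.05, and among the members only Cxcl2 did. None of the alternatives tried, which include the deposited table and an intensity trend, passed a member. The median difference of the 7 genes was -0.14, against 0.09 for all genes. Cre was carried only by KO cells, so loss of Foxo1 and presence of Cre cannot be told apart.

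Cxcl2 differed by 2.48 ± 0.44 (SE), a fold of 5.57, with a 95% confidence interval of 1.25 to 3.70, an unadjusted p of 0.00522 and an adjusted p of 0.360 in limma. Its processed signal in M0, M1 and M2 was 133, 297 and 35.4 units on the KO arrays, against 41.4, 25.9 and 5.96 units on the WT arrays. The genotypes overlapped only across states: KO M2 lay below WT M0. KO minus WT was 1.52 in M0 and 3.53 in M1, and in M2, where WT was dim, KO was at least 4.05-fold higher. The fit over the states takes that dim reading as it is. The M2 pair is the only one on 1 slide. With normexp correction, which adds an offset of 50 units, the difference was 1.94 in M1 and at least 0.35 in M2, and 1.25 over the states. Over the states it ran from 1.95 (without an M1 array) to 2.96 (without an M0 array).

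Cxcl1 differed by 1.17 ± 0.48 (SE), with a 95% confidence interval of -0.19 to 2.53 and an adjusted p of 0.467 in limma. Its signal in M0, M1 and M2 was 60.3, 61.4 and 11.5 units on the KO arrays, against 42.3, 11.3 and 6.17 units on the WT arrays. KO minus WT was 0.34 in M0 and 2.46 in M1, and at least 0.39 in M2. Here too the fit takes the dim WT M2 reading as it is. The M1 pair stands out, and without an M1 array the difference over the states was 0.52. With normexp correction the M1 difference was 0.62 and the M0 difference 1.21.

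Beside these M1 differences of Cxcl1 and Cxcl2, the summed liver transcript level was -0.01 on KO M1, against -3.57 on WT M1. The summed neutrophil level was 3.07 on KO M1 and 3.32 on WT M1, while the median neutrophil marker level was -5.14 and -3.82. Of 9 neutrophil markers, 5 were well above background on KO M1 and 7 on WT M1. The part of these transcripts in the result was not tested. Without both KO M1 and WT M0, which leaves the M2 pair as the genotype difference, KO minus WT was 2.38 for Cxcl2 and 0.70 for Cxcl1, both with WT M2 dim.

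Cxcl3, another ligand of Cxcr2, did not read higher in KO: KO minus WT was -0.14 in M0 and -0.61 in M1, and both M2 arrays were dim. With normexp it was 1.42 in M0 and -0.36 in M1. Over the states it was -0.14 ± 0.23 (SE; adjusted p of 0.782 in limma), and it was positive with normexp (0.33) or a slide block (0.32).

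Cxcl9 was lower in KO in M0 and M2 and not in M1. KO minus WT was -2.14 in M0 (4.42-fold lower), 0.38 in M1, and -1.37 in M2 (2.58-fold lower), and over the states -1.04 ± 0.55 (SE), with an interval of -2.59 to 0.50 and an adjusted p of 0.512 in limma. Over the states it was -1.76 without either M1 array and -0.49 without either M0 array. The signals in M0 and M2 were 28.2 and 10.8 units in KO, against 111 and 24.5 units in WT. The sign in M0 depends on the background correction: normexp gave 0.26 in M0 and -0.41 in M2. Normexp moved the M0 values of Cxcl1 and Cxcl3 upward too, so this shift was not particular to Cxcl9. The WT M0 array also carried the highest summed levels of neutrophil markers (6.39, against 3.01 to 4.92 elsewhere) and liver transcripts, whose part in the M0 difference was not tested.

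Cxcl10 had the same signs in smaller size, with a KO minus WT value of -0.64 (M0), 0.56 (M1) and -0.52 (M2). The mean of -0.20 ± 0.30 (SE; adjusted p of 0.772 in limma) turned to 0.022 without either M0 array. Cxcl11 was measured in both genotypes only in M1, where KO minus WT was 0.50. All 3 Cxcr3 ligands were therefore higher on the KO M1 array, by 0.38 to 0.56, where the median of all genes was 0.13. Cxcl16 had KO minus WT values of -0.016 (M0), -0.16 (M1) and -0.57 (M2) on the brighter probe, and by -0.13, 0.42 and 0.19 on the other, so its probes disagree in sign in M1 and M2.

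At a fold of at least 2 within a state, Cxcl2 was higher and Cxcl9 lower in KO in M0, where 6.66% of all genes were higher and 3.76% lower. In M1 Cxcl1 and Cxcl2 were higher and no member lower, against 10.3% and 1.06% of all genes. In M2 Cxcl2 was higher, by its bound, and Cxcl9 lower, against 2.58% and 4.14%. KO was above WT in all 3 states, at any size, for Cxcl1 and Cxcl2 and below it for Cxcl16 on its brighter probe. Of all tested genes, 22.1% lay above and 15.1% below in this way, with dim readings taken as they are. For Cxcl1 and Cxcl2 the WT M2 array was dim. The other Cxcl16 probe had KO above WT in M1 and M2. No replicate stands behind these single-state values.

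**Figure D4:**
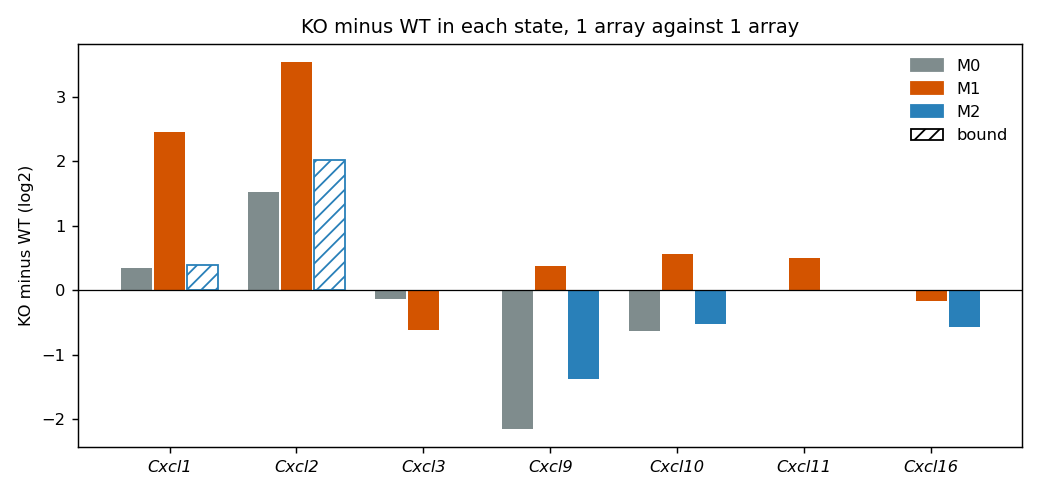
KO minus WT on the log2 scale for each of the 7 genes in M0, M1 and M2, from 1 array against 1 array, with hatched bars for bounds where WT was not well above background and no bar where both arrays were dim. Cxcl2 is above 0 in all 3 states, with its highest value of 3.53 in M1, and Cxcl9 is below 0 in M0 and M2.

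Other CXC ligands were read beside the 7 genes. Of 8 on the array, 5 were tested, and in limma 4 fell and 0 rose in M1 against M0. Of all tested genes, 14% fell and 11.6% rose in this comparison. The stromal homing factor Cxcl12 differed by -3.40 ± 0.25 (SE; adjusted p of 0.00830), platelet basic protein Ppbp by -2.91 ± 0.29 (0.0116), Cxcl14 by -1.46 ± 0.15 (0.0120) and platelet factor 4, Pf4, by -1.05 ± 0.24 (0.0497). Cxcl5, a further Cxcr2 ligand, differed by 1.15 ± 0.44 and did not pass (0.141). Pf4 read 7.51, 6.79 and 6.98 on the KO arrays and 7.44, 6.06 and 6.88 on the WT arrays in M0, M1 and M2, with M1 lowest in both genotypes. Cxcl12 read -0.95, -4.03 and -1.63 on the KO arrays and 0.50, -3.23 and -0.91 on the WT arrays, lower in KO in each state. The summed stromal marker level was 2.12 to 2.66 on the KO arrays and 2.96 to 4.11 on the WT arrays, and in M1 against M0 4 of 8 stromal markers fell and 0 rose in limma (median -1.11). The part of stromal cells in the Cxcl12 values was not tested. Cxcl13, Cxcl15 and Cxcl17 were not well above background on any array. In M1 against M2, Cxcl5 rose at least 1.79-fold (adjusted p of 0.0381) and Cxcl12 fell by 2.36 (0.0114).

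Of the 8 receptors, 6 were tested, and in M1 against M0 2 fell and 1 rose in limma, where 14% of all tested genes fell and 11.6% rose. Cxcr3, the receptor of Cxcl9, Cxcl10 and Cxcl11, differed by -5.22 ± 0.19 (SE; adjusted p of 0.00677), with levels in M0, M1 and M2 of 1.55, -3.74 and -1.10 on the KO arrays and 1.65, -3.49 and -1.33 on the WT arrays. It was thus lowest in the state in which its ligands were highest, in both genotypes. Cxcr4, the receptor of Cxcl12, differed by -4.15 ± 0.26 (0.00717) and read 1.34, -2.49 and 0.58 on the KO arrays and 1.48, -2.99 and -0.07 on the WT arrays. Cxcr5 rose at least 2.58-fold (0.0151), since it was well above background only in M1, at -4.78 in KO and -5.15 in WT.

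Cxcr2, the receptor of Cxcl1, Cxcl2 and Cxcl3, was well above background on both M2 arrays, at -4.59 in KO and -4.01 in WT, and on WT M0 at -5.69. These are readings of its brighter probe, which was dim on both M1 arrays and on KO M0. The other Cxcr2 probe was dim on all arrays, at -7.52 in KO and -7.29 in WT in M2. In M1 against M2 the brighter Cxcr2 probe fell at least 3.63-fold (adjusted p of 0.0154 in limma). In the same comparison Cxcr3 fell by 2.40 (0.00762) and Cxcr4 by 3.00 (0.00839), while Cxcr5 rose at least 2.43-fold (0.00997). Cxcr6, the receptor of Cxcl16, differed by 0.28 ± 0.32 in M1 against M0 (0.562). The chemokine scavenger Ackr1 (Darc in the files) differed by -0.22 ± 0.61 (0.822), and Cxcr1 and Ackr3 (Cxcr7 in the files) were dim on all arrays. T and NK cell markers, of cells that carry Cxcr3, had summed levels between -2.25 and -0.77 with 2 to 5 of 9 well above background, and the neutrophil sum ran from 3.01 to 6.39. The part of such cells in the receptor readings was not tested. In M2 against M0, 0 of these ligands and receptors passed in limma, where 0.0788% of all tested genes passed as higher and 0.021% as lower. Cxcr3 had a difference of -2.81 ± 0.19 in that comparison (adjusted p of 0.0579 in limma). For KO against WT 0 passed, and 0 of all tested genes did.

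**Figure D5:**
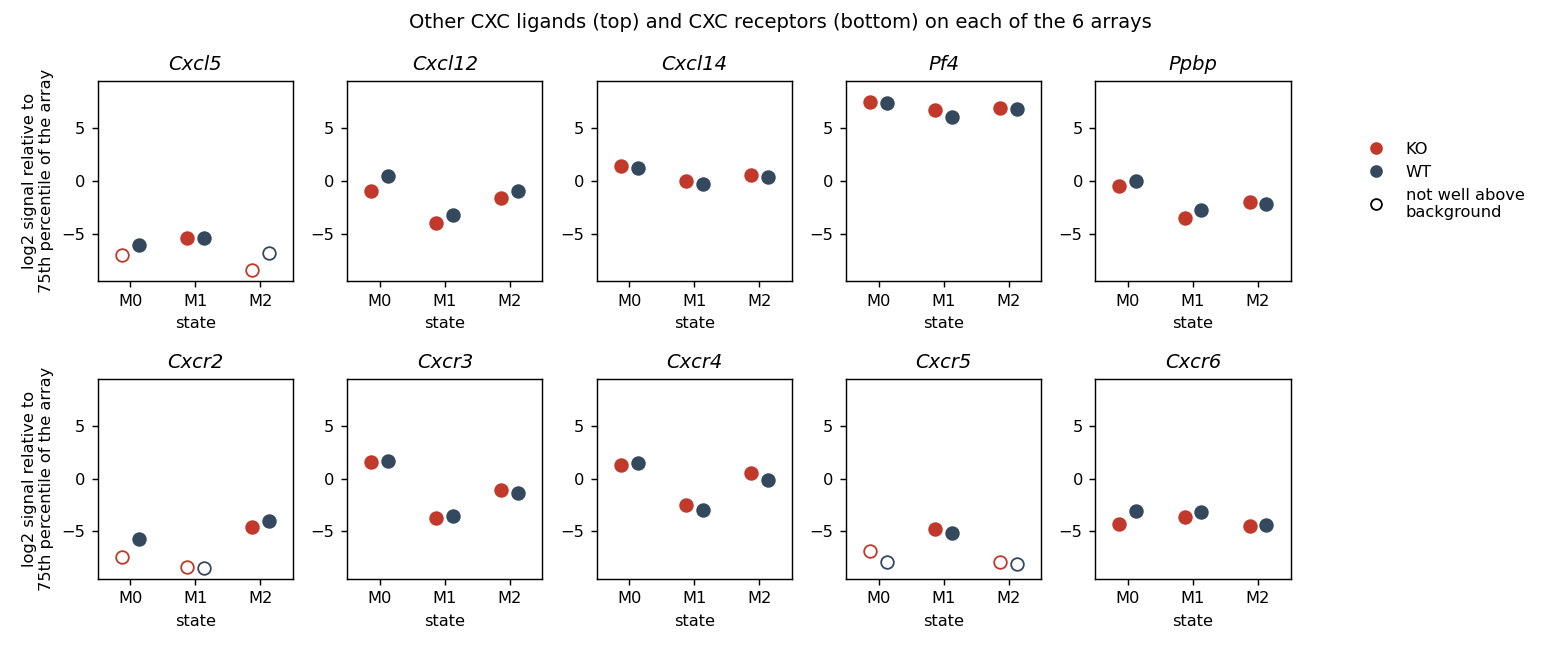
Levels of the 5 tested other CXC ligands (top) and 5 CXC receptors (bottom) on each array (log2 signal relative to the 75th percentile of the array) in M0, M1 and M2, with KO in red to the left of WT in dark blue and hollow points not well above background. Cxcr3, Cxcr4 and Cxcl12 are lowest in M1 in both genotypes.

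Genes upstream of the chemokines were read from lists. Of 10 interferon-gamma signalling genes, 6 rose and 1 fell in M1 against M0 in limma, with a median difference of 1.29. Among all tested genes 11.6% rose and 14% fell. The feedback inhibitor Socs1 differed by 6.31 ± 0.44 (SE; adjusted p of 0.00791), the transcription factor Irf1 by 3.09 ± 0.30 (0.0112) and the kinase Jak2 by 2.81 ± 0.15 (0.00704). Of 13 tested LPS and NF-kB signalling genes, 6 rose and 0 fell, with a median of 0.81. The largest differences among those that passed were the NF-kB inhibitors Tnfaip3 at 2.22 ± 0.15 (0.00791) and Nfkbia at 1.85 ± 0.22 (0.0146), and the adaptor Myd88 at 1.60 ± 0.16 (0.0111). Of 8 genes of chemokine mRNA decay and protein processing, 1 rose and 1 fell, near the shares of all genes. Zfp36, which marks AU-rich mRNAs for decay, differed by 1.60 ± 0.22 (0.0196), and its relative Zfp36l1 by -2.50 ± 0.27 (0.0127). The medians of these 3 lists for KO against WT were -0.06, 0.21 and 0.01, with 0 genes passing in limma, as for all tested genes. In M2 against M0 0 passed as well, where 0.0788% of all tested genes passed as higher and 0.021% as lower.

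The genes outside the family with the most similar pattern were sought by the root mean square difference of their centred levels over the 6 arrays, among the 15864 genes that each of them measured above background. For Cxcl10 these were the formyl peptide receptor genes Fpr2 (0.553) and Fpr1 (0.725) and the membrane protein gene Ms4a4c (0.733). Fpr2 read -0.94, 6.25 and -5.05 on the KO arrays and 0.19, 6.19 and -4.28 on the WT arrays in M0, M1 and M2, in the same order of states as Cxcl10. The nearest to Cxcl9 were Fpr1 (1.83), Ms4a4d (1.90) and Fpr2 (1.93), nearer than Cxcl10 itself (2.45). The nearest to Cxcl16 were Ninj1 (0.126), Rffl (0.142) and Tifa (0.143), and Tifa read 2.97, 3.49 and 1.81 on the KO arrays and 3.21, 3.73 and 1.99 on the WT arrays. The other 4 members were not well above background on all arrays and were not matched.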

How the data were processed

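RNA of 6 samples, 1 for each genotype and state, was measured on one-colour arrays. Per the file headers, Agilent Feature Extraction 10.7.3.1 made the deposited intensity values, which it had already corrected for background and for trends across the array. A further table from the authors holds log2 values, whose columns correlated with their own arrays at 0.99886 or more. Its normalization and centring stay unknown (column medians were between 5.39 and 5.41), and it served as an alternative.

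Control spots and flagged outlier spots (79 to 164 of 43379 per array) were left out, repeat spots were averaged, and 37 of 41174 probes were dropped. Processed signals were put on a log2 scale relative to the 75th percentile of their array. The probe with the highest mean stood for its gene, which was tested if 2 or more of the 6 arrays called that probe well above background. With limma 3.58.1 in R 4.3.3, state and genotype were fitted as additive terms (2 residual and 1.88 prior degrees of freedom), a procedure tested on simulated data. Differences within a state have no test.

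The 7 genes were set by name, and the 15 lists and the tests were chosen with earlier results of these data known. The named genes followed a rule: the 7 members, all other CXC ligands and receptors, up to 3 called genes of each upstream list in M1 against M0 and up to 2 in M2 against M0, and the 3 nearest patterns of each member measured on all arrays. Scaling, background correction, probe choice, dim filter, slide, variance prior and single arrays were varied. Leaving out WT M0 with KO M1 was chosen after seeing the data. Promoter sequences are RefSeq's (GRCm38.p6), and probe coordinates are on mm9 (NCBI37), per the file headers.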

Additional observations from a re-analysis of the deposited data

Results flagged for a closer look

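The following differences have opposite signs in the groups compared. Each is between single arrays and was not tested.

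M1 minus M0 was 0.07 in KO and -2.05 in WT for Cxcl1, 2.12 apart. For Cxcl2 it was 1.20 in KO and -0.82 in WT, 2.02 apart. For Cxcl3 it was -0.02 in KO and 0.45 in WT, -0.47 apart.

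KO minus WT of Cxcl9 was 0.38 in M1, against -2.14 in M0 (2.52 apart) and -1.37 in M2 (1.75 apart). For Cxcl10 it was 0.56 in M1, against -0.64 in M0 (1.20 apart) and -0.52 in M2 (1.08 apart).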

How the results depend on the processing

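Of the member differences in the additive model, 326 kept direction and side of the threshold under the alternatives with a test, 42 no longer passed, 13 newly passed and 23 reversed. Without both WT M0 and KO M1, which leaves no test, 12 moved by less than their SE and 16 by more. Members called in M1 against M0 numbered 0 to 3, against 3, with single arrays left out, and 2 to 4 under the other settings. In M2 against M0 they numbered 0, against 1 with quantile normalization, 1 with the authors' deposited table, 1 with only genes bright on all 6 arrays, 2 with an intensity trend and 3 with median centring. In M1 against M2 they numbered 6, against 3 with only genes bright on all 6 arrays and 0 to 5 with single arrays left out. The calls of Cxcl2 and Cxcl3 were also lost with normexp correction, with no filter on dim genes and with the slide as a block. For KO against WT 0 were called under every setting run. Members past 2-fold in M1 numbered 1 and in M2 0 with normexp correction, against 2 and 2, and in M0 3, against 2.

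Reversed values were those of differences that did not pass. In M1 against M0, Cxcl2 was -0.53 without KO M0 and -0.60 without KO M1 (range with single arrays left out -0.60 to 0.98), and Cxcl3 was -0.73 with normexp and -0.13 without WT M1 (-0.13 to 0.57). Cxcl11 in M2 against M0, where both sides are dim and have no order, was -0.18 with quantile normalization, -0.015 with median centring, -0.97 with normexp, -0.21 with the deposited table, -0.16 with the slide as a block or without WT M2, and -0.10 without KO M0 (-0.16 to 0.31). For KO against WT, Cxcl3 was 0.33 with normexp, 0.32 with the slide as a block and 0.090 without either M1 array (-0.37 to 0.090), Cxcl9 was 0.11 with normexp, and Cxcl10 was 0.022 without either M0 array (-0.58 to 0.022). Cxcl11 was 0.68 with normexp, 0.07 without either M0 array and 0.10 without either M2 array (-0.32 to 0.10). Cxcl9 in M0 was 0.26 with normexp. The cause was not tested. No paired analysis was possible because each genotype and state has 1 array and no replicate number could serve as a block. The additive model already compares states within genotypes and genotypes within states. Signal over background limits Cxcl1 and Cxcl2 in WT M2, Cxcl3 in M2 and Cxcl11 outside M1.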
